A study of Mus musculus with 10 samples.

Results

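Satellite repeats are tandemly repeated DNA, and include the arrays that build centromeres and the heterochromatin beside them. Their RNA was followed here in round spermatids, the haploid germ cells that follow meiosis, after a short heating of the testis. The rows described are those of the count table whose type is transposable element (TE) and whose class is Satellite. There were 9 such rows among 1146 TE rows and 56547 rows in all: IMPB_01, MMSAT4, ZP3AR, MurSAT1, SUBTEL_sa, GSAT_MM, SYNREP_MM, CENSAT_MC and (CATTC)n. Each row is a repeat subfamily summed over its copies in the genome, so a value belongs to no single locus. Of the 9 rows, 7 passed the filter on low counts and were tested, and (CATTC)n and CENSAT_MC had 1 count each.

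The mice were adult male CD1, an outbred stock. Under isoflurane anaesthesia, the testes lay for 30 minutes against water at 33 °C (control group) or 42 °C (heat group), and both groups woke before the cells were isolated. Each group had 5 libraries. No label ties the libraries to separate mice, other than the stated 5 mice per group, so the p-values measure the spread between these libraries. Per the labels, libraries were made from total RNA by a stranded protocol that removes ribosomal RNA, which does not select for poly(A) tails.

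In mouse cells the major satellite, GSAT_MM in this table, surrounds the centromeres and is packed by histone methyltransferases of the SUV39H type and by HP1 proteins. In round spermatids this heterochromatin gathers in a chromocenter in the middle of the nucleus. (CATTC)n is the repeat unit of human satellite III, which human cells transcribe under heat shock through the heat shock factor HSF1. Centromeric arrays are largely missing from the mouse genome assembly, so reads from them have few places to align. How reads with several alignments were shared out is not given in the sources used here, and this can set the level of every satellite row.

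The control libraries held 92311183 to 117723075 counts and the heat libraries 60623568 to 102086073. The share of counts on TE rows was 4.62 to 9.07% in controls, and 5.79 to 7.30% in 4 heat libraries. It was 16.2% in the remaining one, 42 °C replicate 2, which also had the lowest total. Olfactory receptor genes, which are close to silent in most tissues, summed to 323 CPM in that library and to between 123 and 192 CPM in the other 9 (CPM, counts per 1000000 counts after scaling by TMM, edgeR's correction for library composition). Because that library stands apart, values without it are given beside each row. Markers of round spermatids summed to 3340 to 5371 CPM in controls and 3578 to 7473 CPM after heat, and markers of spermatocytes to 1055 to 1397 and 758 to 1185 CPM. The sums stayed at or under 27.9 CPM in every library for spermatogonia, Sertoli, Leydig, stromal and endothelial cells, leukocytes and erythroid cells. The part of these other cells in the satellite values was not tested, and in bulk RNA a change in the number of cells cannot be told apart from a change in RNA per cell.

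No satellite row passed the test between 33 and 42 °C. The edgeR quasi-likelihood test, with Benjamini-Hochberg adjustment over all 26025 features tested, called 0 of 7 rows higher and 0 lower at an adjusted p of 0.05. In the same fit 0.0884% of all features were called higher and 0.00384% lower. Among genes these shares were 0.0922% and 0.00401%, and among the 1077 TE rows 0% in either direction. At an unadjusted p of 0.05, edgeR and limma voom also gave 0 satellite rows, and DESeq2 gave 1, MurSAT1. In edgeR 8.56% of all features were higher and 2.94% lower at that p, and 2.71% of the other TE rows were higher and 0% lower. The edgeR count was 1 satellite row with no filter and without 33 °C replicate 5, 42 °C replicate 3 or 42 °C replicate 5. In 7 of 7 rows the CPM of the groups overlapped, and groups without overlap were found in 0.0929% of TE rows. The share without overlap over all features was not taken, so how usual overlap was among genes is not shown. The log2 fold change (42 °C minus 33 °C) was positive in 6 rows and negative in MMSAT4, with a median of 0.25. The median was 0.27 over the 1070 other TE rows, 996 of which were positive. It was -0.01 over all 26025 features, 12728 of which were positive. Without 42 °C replicate 2, the medians were 0.04 for the satellite rows and -0.03 for TE rows.

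**Figure D1:**
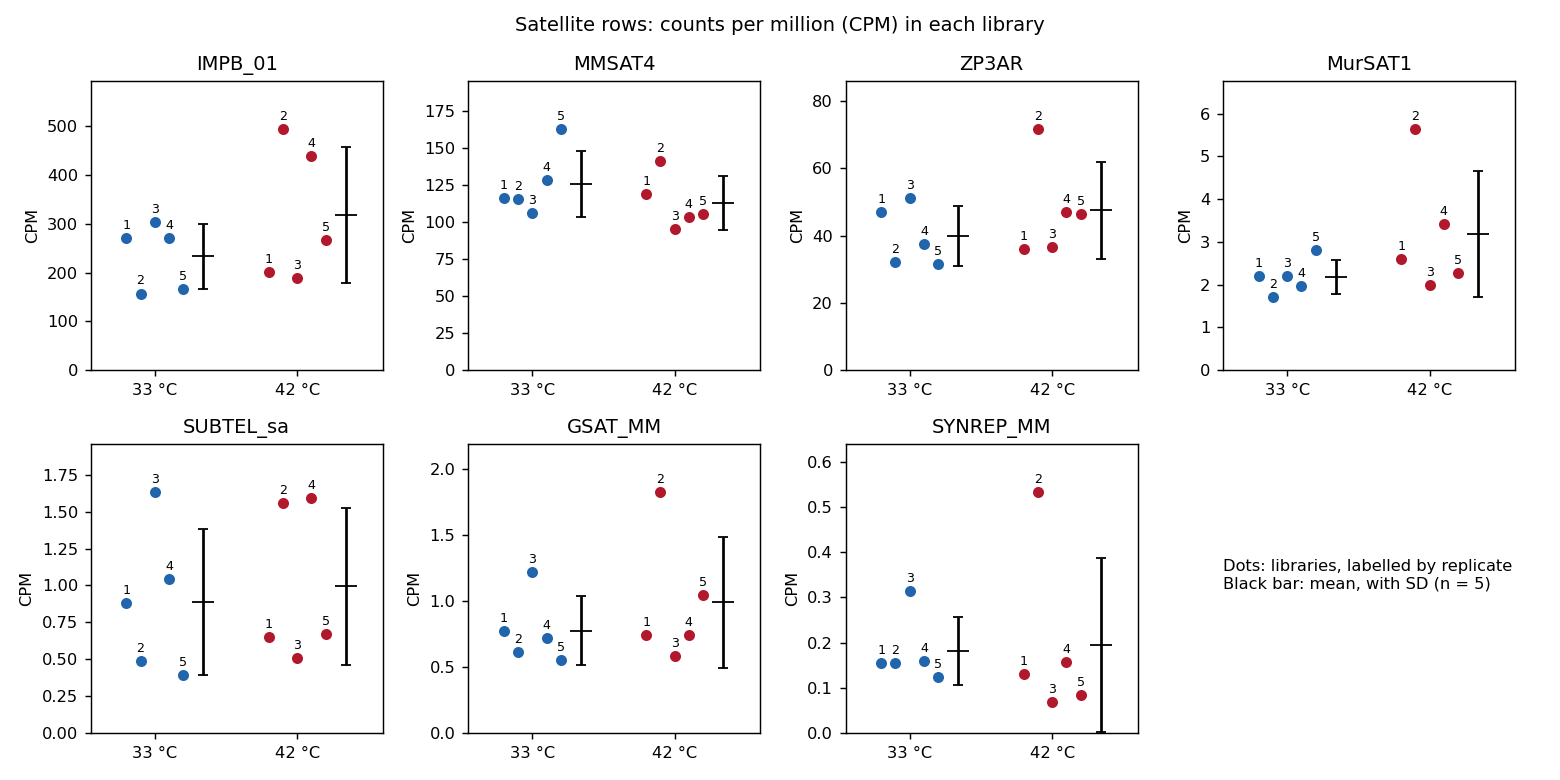
Level of each tested satellite row in CPM (vertical axes, from 0) in the 5 libraries of each group (dots, numbered by replicate), with the mean and SD beside them. The groups overlap in all 7 panels, and 42 °C replicate 2 is the highest dot at 42 °C in all panels but SUBTEL_sa, where replicate 4 is.

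The satellite class held 0.0399 ± 0.00827% of all counts in controls and 0.0498 ± 0.0196% after heat (SD, n = 5 per group). The difference of 0.0099 percentage points was 0.0024 without 42 °C replicate 2 and 0.00034 without IMPB_01. Of the counts on TE rows it held 0.597 ± 0.0648% and 0.607 ± 0.117%. Most of this class lay in 3 rows: IMPB_01 had 61.7% of all satellite counts, MMSAT4 27.3% and ZP3AR 9.88%. The major satellite GSAT_MM had 0.197%. Levels of different rows are counts over unknown total lengths, so these shares describe the libraries and not the RNA per copy.

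Between libraries, the level of most satellite rows followed the share of counts on TE. That of MMSAT4 did not, nor did that of MurSAT1 once 42 °C replicate 2 was left out. As a description over 10 libraries, Pearson's r between log2 CPM and the log2 ratio of other TE counts to gene counts was 0.94 for ZP3AR, 0.91 for GSAT_MM, 0.87 for IMPB_01, 0.81 for SYNREP_MM, 0.80 for SUBTEL_sa, 0.69 for MurSAT1 and 0.12 for MMSAT4. Without 42 °C replicate 2 it was 0.087 for MurSAT1 and -0.38 for MMSAT4, and 0.49 to 0.87 for the other 5 rows. The rank correlation (Spearman's rho) over 10 libraries was 0.24 for MurSAT1, 0.16 for MMSAT4 and 0.75 to 0.89 for the other 5 rows. Dividing by the TE counts of each library made the spread within groups narrower in 6 of the 7 rows, and in 95.4% of all 1077 tested TE rows. For IMPB_01 the coefficient of variation, averaged over the 2 groups, went from 36.3 to 16.9%, for GSAT_MM from 42.1 to 17.3% and for ZP3AR from 26.4 to 10.9%. For MMSAT4 it went from 16.8 to 31.7%. Across the same libraries, in which all rows share depth and scaling, r between rows was 0.49 to 0.92 for the 15 pairs of rows without MMSAT4. It was -0.16 to 0.41 for the 6 pairs with it. Without 42 °C replicate 2 these ranges were 0.0019 to 0.91 and -0.56 to 0.16, over 9 libraries. When TE rows alone were tested, scaled to TE counts, 0 of the 7 rows passed in edgeR, 0 of them at an unadjusted p of 0.05, and 1 of 1075 TE rows passed.

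**Figure D2:**
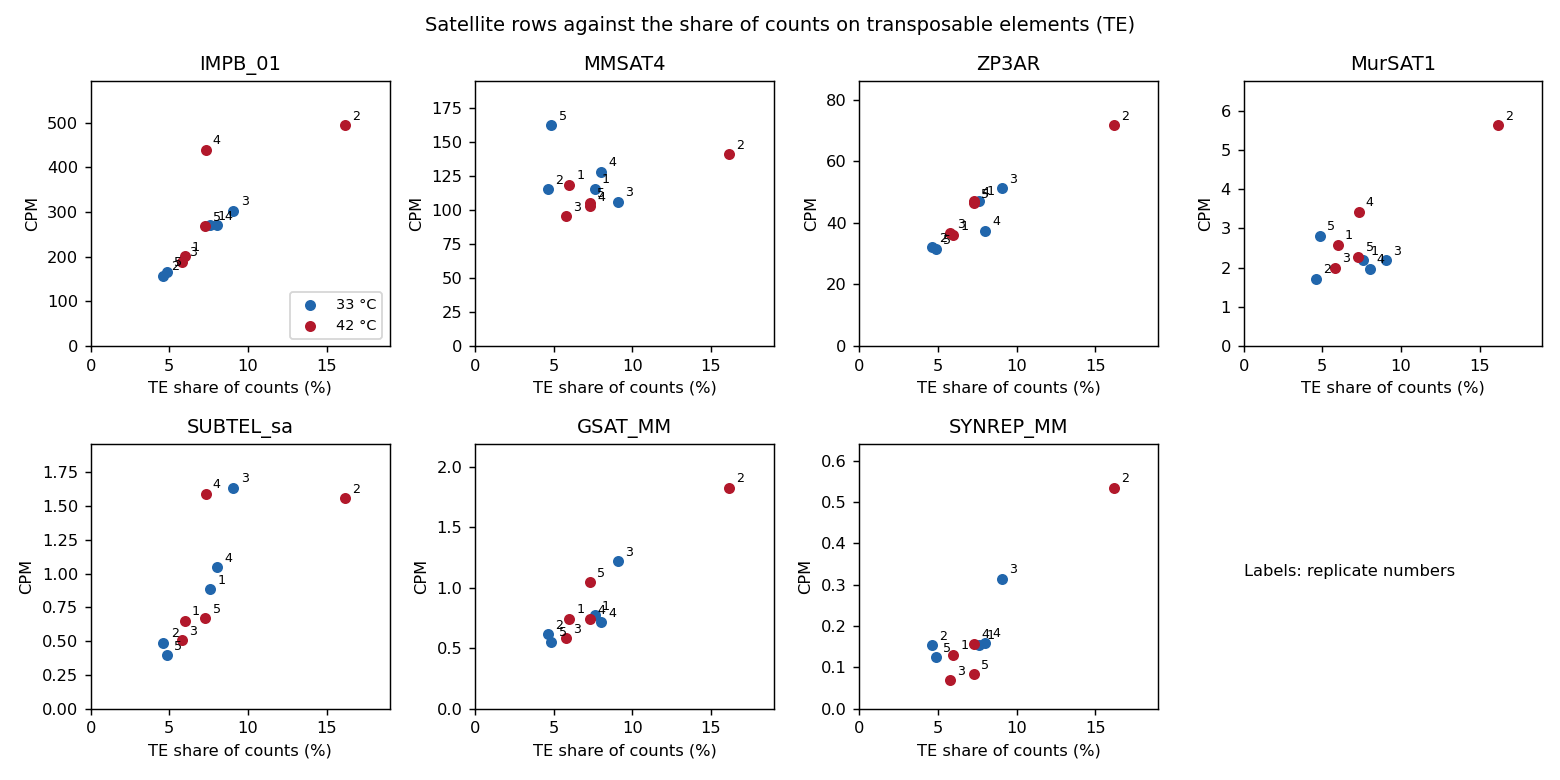
CPM of each satellite row (vertical axes) against the percentage of a library's counts that fell on TE rows (horizontal axes), with blue dots for 33 °C, red dots for 42 °C and replicate numbers beside them. The library at 16.2% is 42 °C replicate 2. IMPB_01, ZP3AR and GSAT_MM climb with the TE share, while the highest MMSAT4 value, 162 CPM, belongs to 33 °C replicate 5, a library with a TE share of 4.86%.

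IMPB_01 was the most abundant satellite row, the 63rd of 1146 TE rows by total count. It had 271, 157, 303, 271 and 167 CPM in replicates 1 to 5 at 33 °C and 202, 494, 188, 440 and 268 CPM at 42 °C. Replicates 2 and 4 at 42 °C lay above every control library, and the other 3 lay within the control range. Controls averaged 234 ± 66.9 CPM and heat libraries 318 ± 140 CPM (SD), a log2 fold change of 0.45 (SE 0.29, 95% interval -0.18 to 1.08, adjusted p = 0.517 by edgeR). Without 42 °C replicate 2 it was 0.27 (adjusted p = 0.717 by edgeR), and limma voom, which weights libraries by quality, gave -0.04 (adjusted p = 0.936).

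The high values of IMPB_01 in those libraries differed once the TE counts were used as the base. Per 1000000 TE counts, IMPB_01 had between 3193 and 3717 counts in 9 libraries, 42 °C replicate 2 included with 3401. In 42 °C replicate 4 it had 5924. With that scale the log2 fold change was 0.22 (SE 0.15, adjusted p = 0.747 by edgeR over TE rows).

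The 5 features whose log2 CPM followed IMPB_01 most closely over the 10 libraries, among 17135 other features of at least 1 CPM, were 4 TE rows and a pseudogene. They were IAPLTR2a2_Mm, a long terminal repeat of the IAP endogenous retroviruses (r = 0.97), Gm3433 (r = 0.96; chromosome 8, 37103866 to 37106827, plus strand, GRCm38), RMER17D (r = 0.96), the DNA transposon Looper (r = 0.95) and MER68B (r = 0.95). Among the 100 most similar features, TE rows were 73% for IMPB_01, 89% for ZP3AR, 68% for GSAT_MM, 54% for SUBTEL_sa, 33% for SYNREP_MM and 15% for MurSAT1. TE rows made up 5.43% of the features compared. For MMSAT4 the share was 0%.

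ZP3AR had 47.1, 32.2, 51.2, 37.4 and 31.4 CPM at 33 °C and 36.0, 71.7, 36.5, 47.1 and 46.4 CPM at 42 °C, in replicates 1 to 5. A single library, 42 °C replicate 2, lay above the control range. Controls averaged 39.9 ± 8.92 CPM and heat libraries 47.5 ± 14.5 CPM (SD), a log2 fold change of 0.25 (SE 0.21, adjusted p = 0.595 by edgeR). It was 0.10 without that library, -0.04 with limma voom and 0.03 (95% interval -0.18 to 0.24) when scaled to TE counts. This last interval was the narrowest of the 7 rows on that scale.

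**Figure D3:**
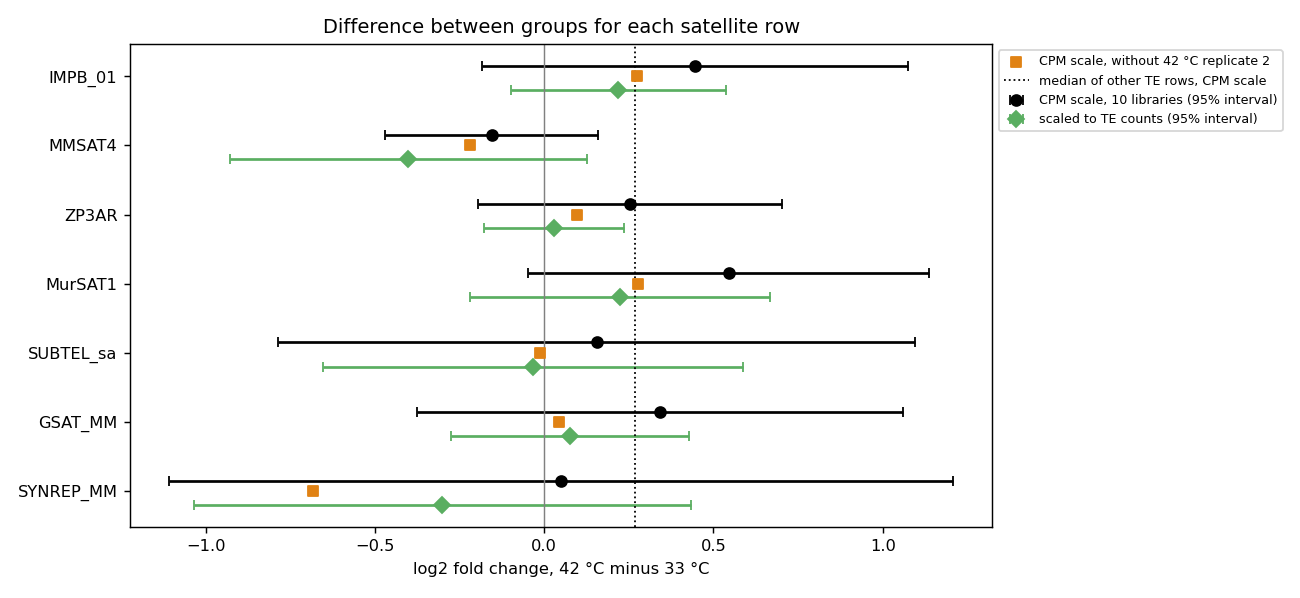
Log2 fold change, 42 °C minus 33 °C, of each tested satellite row (horizontal axis) from edgeR on the CPM scale with 10 libraries (black dots, 95% intervals), without 42 °C replicate 2 (orange squares) and scaled to TE counts (green diamonds, 95% intervals). The dotted line is the median of the other TE rows, 0.27. All 14 intervals drawn include 0.

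MMSAT4 was the second most abundant satellite row and the one with a negative log2 fold change. It had 116, 115, 106, 128 and 162 CPM in replicates 1 to 5 at 33 °C and 119, 141, 95.4, 103 and 106 CPM at 42 °C. Its highest values were in 33 °C replicate 5 and 42 °C replicate 2, libraries with TE shares of 4.86 and 16.2%, and 4 of 5 heat libraries lay below the control mean. Controls averaged 126 ± 22.0 CPM and heat libraries 113 ± 18.0 CPM (SD), a log2 fold change of -0.15 (SE 0.14, 95% interval -0.47 to 0.16, adjusted p = 0.635 by edgeR). Without 42 °C replicate 2 it was -0.22 (adjusted p = 0.562 by edgeR), without 33 °C replicate 5 it was -0.0016, and scaled to TE counts it was -0.40 (SE 0.24, adjusted p = 0.691 by edgeR over TE rows).

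The 5 features most like MMSAT4 were genes of a cluster on chromosome 4. The closest 5 by Pearson's r of log2 CPM over 10 libraries were the long noncoding RNA Gm13166 (r = 0.97; chromosome 4, 146251829 to 146278434), the zinc finger gene Zfp992 (r = 0.94; 146449023 to 146470292), the pseudogenes Gm13135 (r = 0.92; 147275976 to 147279096) and Znf41-ps (r = 0.90; 145825237 to 145829942), and Zfp993 (r = 0.89; 146610961 to 146658160), all on the plus strand of GRCm38. Of the 100 most similar features, 20 were on chromosome 4, and 11 of these lay in a stretch from 145267137 to 147947314 that held 31 of the 16205 genes compared and was chosen after their values were seen. Among the 10 most similar features, Zfp758 (r = 0.89), Aunip (r = 0.88) and Stk17b (r = 0.86) lay outside that stretch. Symbols starting with Zfp or Znf were given to 10 of the 100, and to 268 (1.65%) of the genes compared. Over the 8 libraries other than the 2 highest for MMSAT4, a choice made after seeing the data, r was 0.94 for Gm13166, 0.83 for Zfp992 and for Gm13135, 0.73 for Znf41-ps and 0.62 for Zfp993. Zinc finger genes of this kind encode DNA-binding proteins built from tandem zinc fingers. How reads were divided among the genes of this cluster was not tested, and their separate values are uncertain to that extent.

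These genes were highest in the same 2 libraries as MMSAT4, 1 of each group. They were chosen by r over these libraries, so the match follows in part from that choice. Zfp992 had 18.6, 21.2, 17.8, 23.2 and 44.6 CPM in replicates 1 to 5 at 33 °C and 21.3, 37.1, 18.2, 16.6 and 18.0 CPM at 42 °C. Znf41-ps had 20.5 CPM in 33 °C replicate 5 and 18.9 CPM in 42 °C replicate 2, and between 1.61 and 3.53 CPM in the other 8 libraries. Zfp993 had 7.18 and 6.78 CPM in that pair and between 1.78 and 3.16 CPM elsewhere. Gm13135 had 3.61 and 3.57 CPM there and between 1.37 and 2.68 CPM elsewhere. Gm13166 varied less, with 13.1 and 11.2 CPM in the pair and 7.45 to 11.0 CPM in the other 8. Named after their values were seen, Zfp991 (147132038 to 147180579) had 21.9 and 20.7 CPM against 1.24 to 2.01 CPM, and Zfp979 (147611937 to 147642513) had 6.76 and 7.89 CPM against 0.119 to 0.355 CPM. The same libraries were the 2 highest for 9 of the 31 genes in the stretch, and for 1.15% of the 16205 genes. None of these 7 genes passed the test between temperatures, with log2 fold changes from -0.31 for Gm13135 to 0.10 for Zfp979 and edgeR adjusted p from 0.612 to 0.977.

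**Figure D4:**
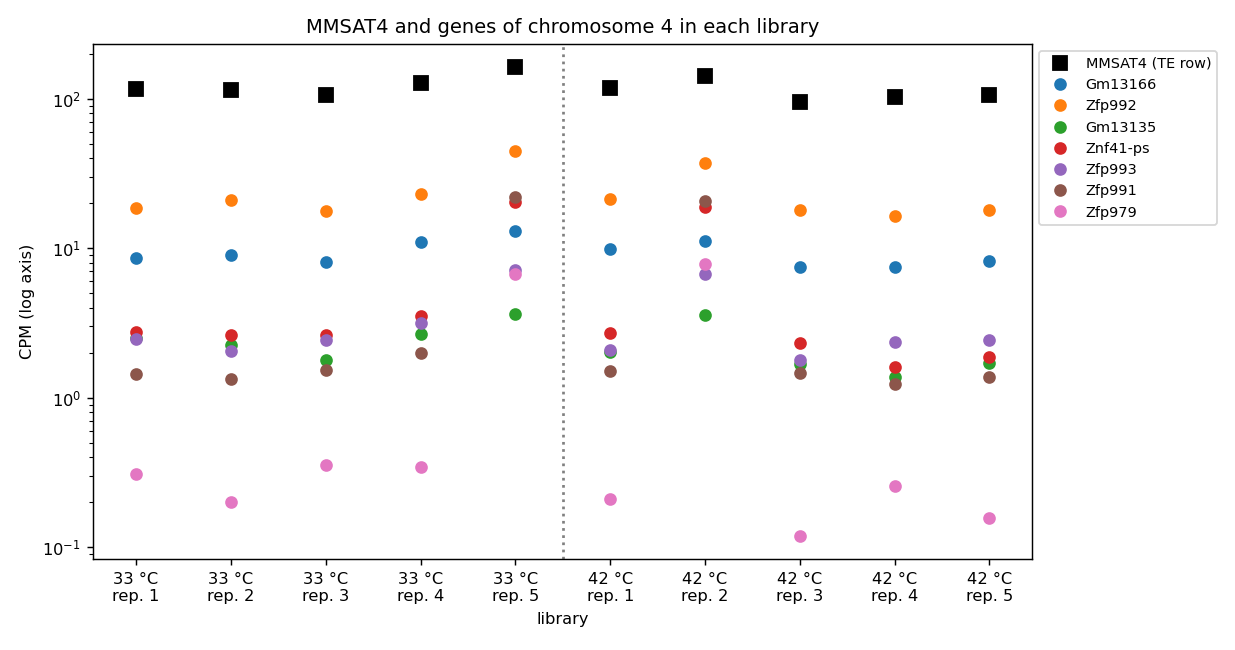
CPM on a log axis of MMSAT4 (black squares) and 7 genes of chromosome 4 (coloured dots) in each library, with controls left and heat right of the dotted line. MMSAT4, Zfp992, Znf41-ps, Zfp993, Zfp991, Zfp979, Gm13135 and Gm13166 are highest in 33 °C replicate 5 and 42 °C replicate 2.

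Transcripts of the zinc finger genes among these hold a stretch of tandem repeats with a unit of 84 bases. In GENCODE M21 transcripts, the share of bases identical to the base 84 positions further on was taken over the best window of 252 bases. It was 91.3% in Zfp992 and in Znf41-ps, 82.9% in Zfp993, 91.7% in Zfp991 and 82.1% in Zfp979, and 28.2% in Gm13166 and 33.7% in Gm13135. At least 80% was reached by 5 of the 7 coding genes among the 10 features most like MMSAT4, and by 0.558% of the 12368 coding genes of at least 1 CPM, whose median was 34.5%. All 5 (Zfp992, Zfp993, Zfp758, Zfp979 and Zfp991) carry Zfp symbols. The period of 84 bases was set and not searched for, and the share among zinc finger genes alone was not taken. This contrast therefore cannot tell likeness to MMSAT4 from membership of that family. The 4 units below, in the coding part of exon 4, the last exon of Zfp992 (chr4:146466858-146467193, plus strand, GRCm38), show this structure in the coding gene most like MMSAT4. Capitals mark the 68 of 84 bases that all 4 units share.
Zfp992 unit 1: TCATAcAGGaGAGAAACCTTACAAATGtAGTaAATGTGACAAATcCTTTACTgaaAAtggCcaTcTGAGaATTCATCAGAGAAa
Zfp992 unit 2: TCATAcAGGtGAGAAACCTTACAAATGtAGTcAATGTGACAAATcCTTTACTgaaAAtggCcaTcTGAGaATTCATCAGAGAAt
Zfp992 unit 3: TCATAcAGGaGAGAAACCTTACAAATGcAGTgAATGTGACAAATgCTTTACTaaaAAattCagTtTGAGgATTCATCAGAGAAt
Zfp992 unit 4: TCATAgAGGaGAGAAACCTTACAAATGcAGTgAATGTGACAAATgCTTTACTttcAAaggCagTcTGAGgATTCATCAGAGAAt
Neighbouring units were identical at 96.4%, 85.7% and 91.7% of their bases. No sequence of MMSAT4 was compared with these units, so whether reads of these genes were counted in MMSAT4 was not tested.

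MurSAT1 had the largest positive log2 fold change and the smallest p of the 7 rows. It had 2.20, 1.72, 2.19, 1.97 and 2.82 CPM at 33 °C and 2.59, 5.63, 2.00, 3.43 and 2.28 CPM at 42 °C, in replicates 1 to 5. Replicates 2 and 4 at 42 °C lay above the control range, and 4 of 5 heat libraries above the control mean. Controls averaged 2.18 ± 0.407 CPM and heat libraries 3.19 ± 1.47 CPM (SD), a log2 fold change of 0.55 (SE 0.27, 95% interval -0.05 to 1.14, unadjusted p = 0.0680, adjusted p = 0.459 by edgeR). It was 0.28 without 42 °C replicate 2, 0.70 without 33 °C replicate 5 (adjusted p = 0.223 by edgeR) and 0.22 scaled to TE counts, and none of these passed.

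SUBTEL_sa had 0.883, 0.489, 1.63, 1.05 and 0.395 CPM at 33 °C and 0.653, 1.56, 0.505, 1.59 and 0.670 CPM at 42 °C. Replicate 3 at 33 °C and replicates 2 and 4 at 42 °C were at similar high levels, and the other 7 libraries were at 1.05 CPM or lower. Controls averaged 0.889 ± 0.496 CPM and heat libraries 0.995 ± 0.532 CPM (SD), a log2 fold change of 0.16 (SE 0.43, adjusted p = 0.880 by edgeR), and of -0.01 without 42 °C replicate 2. Like IMPB_01, it was highest per 1000000 TE counts in 42 °C replicate 4, with 21.4 against 7.56 to 19.0 in the other 9 libraries. The r between these rows was 0.91 over 10 libraries, and 0.91 without 42 °C replicate 2.

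The major satellite GSAT_MM had low counts. There were 70, 68, 120, 67 and 49 counts in replicates 1 to 5 at 33 °C and 74, 123, 59, 66 and 100 counts at 42 °C. In CPM these were 0.772, 0.616, 1.22, 0.715 and 0.552 at 33 °C, and 0.743, 1.82, 0.585, 0.739 and 1.05 at 42 °C. Replicate 2 at 42 °C was the highest, with an exact 95% Poisson interval of 1.52 to 2.18 CPM, which covers counting error only, and the other 4 heat libraries lay within the control range. Controls averaged 0.775 ± 0.262 CPM and heat libraries 0.988 ± 0.497 CPM (SD), a log2 fold change of 0.34 (SE 0.33, adjusted p = 0.645 by edgeR). The interval of the fold was 0.771 to 2.08. Without 42 °C replicate 2 the log2 fold change was 0.04, and scaled to TE counts it was 0.08 (95% interval -0.27 to 0.43).

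SYNREP_MM had between 7 and 36 counts per library. In CPM it had 0.154, 0.154, 0.315, 0.160 and 0.124 at 33 °C, and 0.131, 0.534, 0.0694, 0.157 and 0.0837 at 42 °C. The highest library of each group, 33 °C replicate 3 with 31 counts and 42 °C replicate 2 with 36, was also the group's library with the largest TE share. The Poisson intervals were 0.214 to 0.446 and 0.374 to 0.739 CPM for that pair, and reached from 0.0279 to 0.143 CPM for the lowest library. Controls averaged 0.181 ± 0.0758 CPM and heat libraries 0.195 ± 0.193 CPM (SD), a log2 fold change of 0.05 (SE 0.53, 95% interval -1.11 to 1.21, adjusted p = 0.971 by edgeR). It was -0.68 without 42 °C replicate 2 (SE 0.38, adjusted p = 0.531 by edgeR).

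The row (CATTC)n had 1 count in 33 °C replicate 3 and 0 in the other 9 libraries, and CENSAT_MC had 1 count in 33 °C replicate 2 and 0 elsewhere. At 42 °C a count of 0 in 448395315 allows up to 3 counts, or 0.00663 CPM over the group. At this depth and with this counting, RNA of the satellite III unit was not detectable in the heated group. The total length of the copies behind this row is unknown, so the 0 cannot tell a missing response from missing sequence.

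MurSatRep1, a row with a satellite-like name whose class is Unknown and which is therefore no member, averaged 77.5 ± 6.03 CPM in controls and 81.6 ± 21.0 CPM after heat (SD), and edgeR gave a log2 fold change of 0.08 (SE 0.16, adjusted p = 0.829).

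Genes linked to heterochromatin, from writers and readers of repressive marks to others such as Kdm4a and Brdt, did not pass the test either. Of a list of 54 symbols, 50 were tested, and edgeR called 0 higher and 0 lower, with 1 of 50 (2%) in each direction at an unadjusted p of 0.05, against 8.56% of all features higher and 2.94% lower. DESeq2 and limma voom called 0 as well. Their median log2 fold change was -0.11, against -0.01 over all features, with 36 of 50 negative, beside 13297 of all 26025 features. The methyltransferase genes had log2 fold changes of 0.04 (95% interval -0.30 to 0.39) for Suv39h1, which was low at 6.26 CPM at 33 °C, and 0.21 (-0.23 to 0.66) for Suv39h2, the testis-enriched member, at 42.3 CPM. Among the HP1 genes, which bind the methylated histone, Cbx3 had -0.30 (-0.61 to 0.01), Cbx5 -0.13 (-0.40 to 0.13) and Cbx1 -0.03 (-0.52 to 0.46). The corepressor Trim28 had -0.13 (-0.39 to 0.12), the DNA methyltransferase Dnmt1 -0.06 (-0.61 to 0.49) and the chromatin remodeller Atrx -0.03 (-0.61 to 0.54). The members of smallest p were the methyltransferase Ehmt1 at 0.55 (SE 0.23), Resf1 at -0.41 (SE 0.18), Uhrf1, which guides Dnmt1, at -0.30 (SE 0.14) and Morc2a at -0.24 (SE 0.11), with edgeR adjusted p from 0.410 to 0.447.

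Of 20 centromere protein genes 19 were tested, and edgeR called 0 (median log2 fold change -0.14, with 1 of 19, or 5.26%, lower and 0 higher at an unadjusted p of 0.05, beside 2.94% and 8.56% of all features). Cenpb, which binds a motif in minor satellite DNA, had 1.64 ± 0.343 CPM in controls and 1.61 ± 0.416 CPM after heat. Cenpa, the centromeric histone, did not pass the filter, with means of 0.0278 and 0.0498 CPM. Cenph had -0.34 (SE 0.15) and Cenpl -0.29 (SE 0.15), the smallest p of this list. Of 5 heat shock factor genes 3 were tested, and edgeR called 0. All 3 had negative log2 fold changes, with a median of -0.28, beside 13297 negative of all 26025 features. At an unadjusted p of 0.05 by edgeR, 2 of the 3 (66.7%) were lower and 0 higher, beside 2.94% and 8.56% of all features. Hsf1 had 56.5 ± 5.36 CPM in controls and 46.5 ± 4.28 CPM after heat, lower than the control mean in 5 of 5 libraries. Its log2 fold change was -0.28 (SE 0.11, 95% interval -0.52 to -0.05, unadjusted p = 0.0220, adjusted p = 0.393 by edgeR). Hsf2 had -0.01 (95% interval -0.37 to 0.35).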

How the data were processed

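The authors deposited 1 table of raw counts per gene and per TE subfamily, with no normalization. Per the submitters' processing notes, DRAGEN, cutadapt and Trim Galore were used, on GRCm38 (mm10). Of the counting step, the tool, the strand setting and the handling of multiply aligned reads were not given in the sources used here, nor were versions. Gene positions in the table equalled those of GENCODE M21 (GRCm38) for 99.4% of 55141 shared identifiers. Columns were matched to samples by title.

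From these deposited counts, features were kept with filterByExpr (minimum count 10, minimum total 15), which left 26025 features, 1077 of them TE rows. They were scaled by TMM and tested with edgeR 4.0.16 (glmQLFTest, group as the only term) in R 4.3.3, with Benjamini-Hochberg adjustment over all features kept and a threshold of 0.05. SE is the log2 fold change over the root of F. DESeq2 1.42.0 and limma 3.58.1 (voom with quality weights) were alternatives, as were other scalings, filters, a replicate block, the TE to gene ratio as a covariate, TE rows alone and leaving out each library. No pair of libraries in a group was alike within sampling noise (chi-square per degree of freedom of 13.9 or more). Members and gene lists were chosen with earlier results of these data known. Named were every satellite row, 12 fixed genes of the heterochromatin, centromere and heat shock factor lists, the members of smallest p (4 and 2) of the first and second of these, and the 5 features of at least 1 CPM with the highest Pearson's r of log2(CPM + 0.1) to each of the 2 satellite rows of most counts. Other genes of chromosome 4 were chosen after their values were seen. The pairing of replicate numbers was checked and is given with the alternatives. The main edgeR fit was tested on simulated data, and the alternative fits were not.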

Additional observations from a re-analysis of the deposited data

Results flagged for a closer look

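A group of 5 libraries was flagged where its highest or lowest value lay apart from the rest by more than Dixon's 95% critical value allows. Chance flags about 1 in 20 groups, and 4 of 32 were flagged. SYNREP_MM stood apart in 33 °C replicate 3, at 0.315 CPM against 0.124 to 0.160 CPM, and in 42 °C replicate 2, at 0.534 CPM against 0.0694 to 0.157 CPM. In 42 °C replicate 4, IMPB_01 had 5924 counts per 1000000 TE counts against 3220 to 3717 in the other 4 heat libraries, and SUBTEL_sa had 21.4 against 8.63 to 10.8.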

How the results depend on the processing

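The counts of satellite rows called higher or lower stayed at 0 in all 20 alternatives, as did the count of heterochromatin genes in the 19 that included genes. The median log2 fold change of the satellite rows ran from -0.04 (limma voom) to 0.49 (without 33 °C replicate 3). Over all features edgeR called 23 higher and 1 lower, against 257 and 31 with DESeq2, 124 and 29 with limma voom, 73 and 3 with no filter, 2 and 0 at a mean of at least 1 CPM, 40 and 3 with the TE to gene ratio as a covariate, 15 and 1 with library totals, and 10 to 21 and 0 to 2 without single libraries. The labels do not say that replicate numbers pair the mice, and same-numbered libraries did not deviate together (correlations of -0.56 to -0.10, and 0 of 5 matched best with its own number). With the replicate block 4 features were called higher and 0 lower, and SYNREP_MM had -0.19, Hsf2 0.023 and Atrx 0.0019.

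Of the log2 fold changes, these changed sign, and none was past the threshold in either fit; the cause was not tested. With limma voom the values were -0.045 for IMPB_01, -0.041 for ZP3AR, -0.29 for SUBTEL_sa, -0.66 for SYNREP_MM and 0.014 for Cenpb. With TE rows alone they were -0.032 for SUBTEL_sa and -0.30 for SYNREP_MM, and with the covariate -0.073 and -0.56, with 0.085 for Hsf2 and 0.031 for Cenpb. With DESeq2 size factors 0.00037 for Hsf2. With DESeq2 0.00037 for Hsf2. With TMM over genes only 0.016 for Cbx1, 0.034 for Hsf2, 0.0091 for Atrx and 0.011 for Cenpb. With library totals 0.022 for Cbx1, 0.050 for Hsf2, 0.0060 for Atrx and 0.0059 for Cenpb. With no filter 0.029 for Cbx1, 0.029 for Hsf2, 0.017 for Atrx and 0.020 for Cenpb. With a mean of at least 1 CPM 0.0027 for Cbx1 and 0.026 for Hsf2. Without single libraries the ranges were -0.082 to 0.49 for SUBTEL_sa, -0.68 to 0.34 for SYNREP_MM, -0.27 to 0.10 for Dnmt1, -0.20 to 0.083 for Cbx1, -0.13 to 0.13 for Hsf2, -0.16 to 0.11 for Atrx and -0.14 to 0.15 for Cenpb. The satellite share of TE counts differed between groups by 0.0093 percentage points, from -0.040 to 0.038 without single libraries. Depth limits (CATTC)n and CENSAT_MC, with 1 count each and no test, and among the 7 tested rows SYNREP_MM, at 7 counts in its lowest library.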

Other observations

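In the stretch of chromosome 4 from 145267137 to 147947314, 4 of 31 genes (Zfp990, Plod1, Miip and Zfp982) were lowest in the 2 libraries where MMSAT4 was highest, as were 1.15% of the 16205 genes compared. Zfp990 (145510759 to 145539188, GRCm38), chosen after its values were seen, had 38.6 CPM in 33 °C replicate 5 and 27.1 CPM in 42 °C replicate 2, and between 50.2 and 99.9 CPM in the other 8 libraries. Plod1 (147909753 to 147936767), a lysine hydroxylase of collagen chosen in the same way, had 4.87 and 3.44 CPM in that pair and between 6.65 and 8.27 CPM in the others. Neither passed the edgeR test between temperatures, with adjusted p of 0.596 for Zfp990 and 0.919 for Plod1.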
